A study of Rattus norvegicus with 12 samples.

Results

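The comparison described here is menthol added on top of Wnt3a in ND7/23 cells: 3 libraries from cells given menthol with Wnt3a were set against 3 libraries from cells given Wnt3a alone. ND7/23 is a hybrid line made by fusing rat dorsal root ganglion neurons with the mouse neuroblastoma N18Tg2, and it is used as a model of sensory neurons. The genes were those with a mean of at least 0.5 FPKM (fragments per kilobase of gene, scaled to the mapped fragments of the library) over the 12 libraries of the series, which left 11451 of 21556 genes. The other 6 libraries, 3 untreated controls and 3 with menthol alone, entered the same fit and served as the closest comparison, menthol against control. All treatments lasted 6 h, with menthol at 100 μM and Wnt3a at 100 ng/ml. The question was which genes and pathways menthol moves when Wnt signaling has been switched on.

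Menthol is the cooling agent of mint and opens TRPM8, a calcium-permeable cation channel of cold-sensing neurons. Wnt3a binds a Frizzled receptor and the co-receptors LRP5 and LRP6, which recruits Dishevelled and Axin and frees β-catenin from the complex in which GSK-3 marks it for breakdown. β-catenin then enters the nucleus and, with TCF and LEF factors, turns on targets such as Axin2, a negative regulator of the same pathway. Cyclic AMP is made by adenylate cyclases and acts through protein kinase A, whose catalytic subunit is encoded by Prkaca.

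Each library held between 36914010 and 38836269 reads on genes, which were recovered from the FPKM steps, and 16983 to 17386 genes were above 0. In these libraries 3 reads on a gene of 1 kb correspond to 0.0772 to 0.0813 FPKM. Pairs of replicates differed by more than counting error, with a chi-square per degree of freedom of 3.53 to 7.61, so all were counted as separate samples. The labels do not say whether replicates came from separate cultures, and the p-values measure only the spread between these samples. Of 32 markers of sensory neurons and neuroblastoma, 3 had a mean of at least 0.5 FPKM, namely Uchl1 (101 ± 2.28 FPKM with Wnt3a alone, SD, n = 3), Isl1 (15.8 ± 1.73) and Nefh (6.13 ± 0.404). Of 11 fibroblast markers, 8 passed the same limit, led by Vim (926 ± 30.4 FPKM), Thy1 (143 ± 4.61) and Col1a2 (115 ± 2.51). The neuronal label was therefore carried by few of its markers. Trpm8 itself was under the limit and was not tested. Its 3 libraries with Wnt3a alone gave 0.275, 0.202 and 0.205 FPKM, and those with menthol and Wnt3a gave 0.244, 0.279 and 0.307 FPKM.

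By limma on log2(FPKM + 0.1), 6 of 11451 genes (0.0524%) passed an adjusted p of 0.05 (Benjamini-Hochberg) for menthol on top of Wnt3a, and these 6 fell: Il1rl1, Tgfb1i1, Tm4sf1, LOC290595, Ogn and Eno3. None of them also changed by more than 2-fold (0 genes, 0%, and 1 gene, Mt1, by limma voom on the recovered reads), and the median absolute log2 difference over all tested genes was 0.0628. The added 0.1 FPKM makes the fold changes of weakly expressed genes smaller than their ratios. At an unadjusted p under 0.05, 816 genes (7.13%) were higher and 844 (7.37%) were lower with menthol. The 3 libraries of a group did not overlap with those of the other for 1043 genes that were higher (9.11%) and 981 that were lower (8.57%). The adjusted calls depended on the libraries: without Wnt3a replicate 1 or without Wnt3a replicate 2 no gene passed, and without Wnt3a replicate 3 there were 38 genes. With limma voom on the recovered reads, 144 genes passed, 93 of them higher and 51 lower, and the 6 genes were among them.

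Il1rl1 (NCBI Gene 25556) encodes ST2, the receptor for interleukin-33. It stood at 133, 134 and 125 FPKM with Wnt3a alone and at 104, 110.3 and 105 FPKM when menthol was added. All 3 libraries with menthol were below all 3 without it. The log2 fold change was -0.30 ± 0.037 (SE), a level 0.813 times that with Wnt3a alone, and the adjusted p by limma was 0.00963. Menthol without Wnt3a gave -0.22 (adjusted p = 0.0468), from 137, 143 and 148 FPKM in the controls to 126, 121 and 121 FPKM.

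Tgfb1i1 (NCBI Gene 84574) encodes Hic-5, a focal adhesion adaptor induced by TGF-β. Its 3 Wnt3a libraries gave 35.7, 36.2 and 32.2 FPKM, and those with menthol gave 26.0, 25.3 and 26.0 FPKM. The groups were well apart, with a log2 fold change of -0.43 ± 0.053 and an adjusted p of 0.00963. Menthol alone lowered it by a like amount, -0.38 (adjusted p = 0.0193).

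Tm4sf1 (NCBI Gene 295061), a tetraspanin-like membrane protein, went from 11.2, 11.7 and 11.6 FPKM to 8.90, 7.84 and 9.05 FPKM. Its log2 fold change was -0.42 ± 0.058 (adjusted p = 0.0143). Controls held 9.02 ± 0.338 FPKM (SD, n = 3), so the level with menthol and Wnt3a, 8.60 ± 0.661 FPKM, lay near that of untreated cells. Menthol alone gave -0.28, which did not pass (adjusted p = 0.126).

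Ogn (NCBI Gene 291015) encodes osteoglycin, a small leucine-rich proteoglycan of the extracellular matrix. It went from 15.7, 16.1 and 14.1 FPKM to 11.8, 11.9 and 11.6 FPKM, with a log2 fold change of -0.37 ± 0.0525 (adjusted p = 0.0143). Eno3 (NCBI Gene 25438), the muscle form of the glycolytic enzyme enolase, went from 24.4, 25.0 and 25.8 FPKM to 19.4, 21.4 and 20.9 FPKM, with -0.29 ± 0.043 (adjusted p = 0.0253). Neither gene overlapped between the groups. Both also fell with menthol alone, each by -0.33, with adjusted p values of 0.034 for Ogn and 0.0135 for Eno3.

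LOC290595, a locus without a gene symbol, went from 22, 24.1 and 20.5 FPKM to 15.8, 16.2 and 13.8 FPKM. It had the largest change of the 6 genes, with a log2 fold change of -0.54 ± 0.075 (adjusted p = 0.0143). Menthol alone gave -0.38 (adjusted p = 0.106). For all 6 genes the groups were apart in both comparisons, with menthol always lower, as the plot of the 6 genes by library shows.

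**Figure D1:**
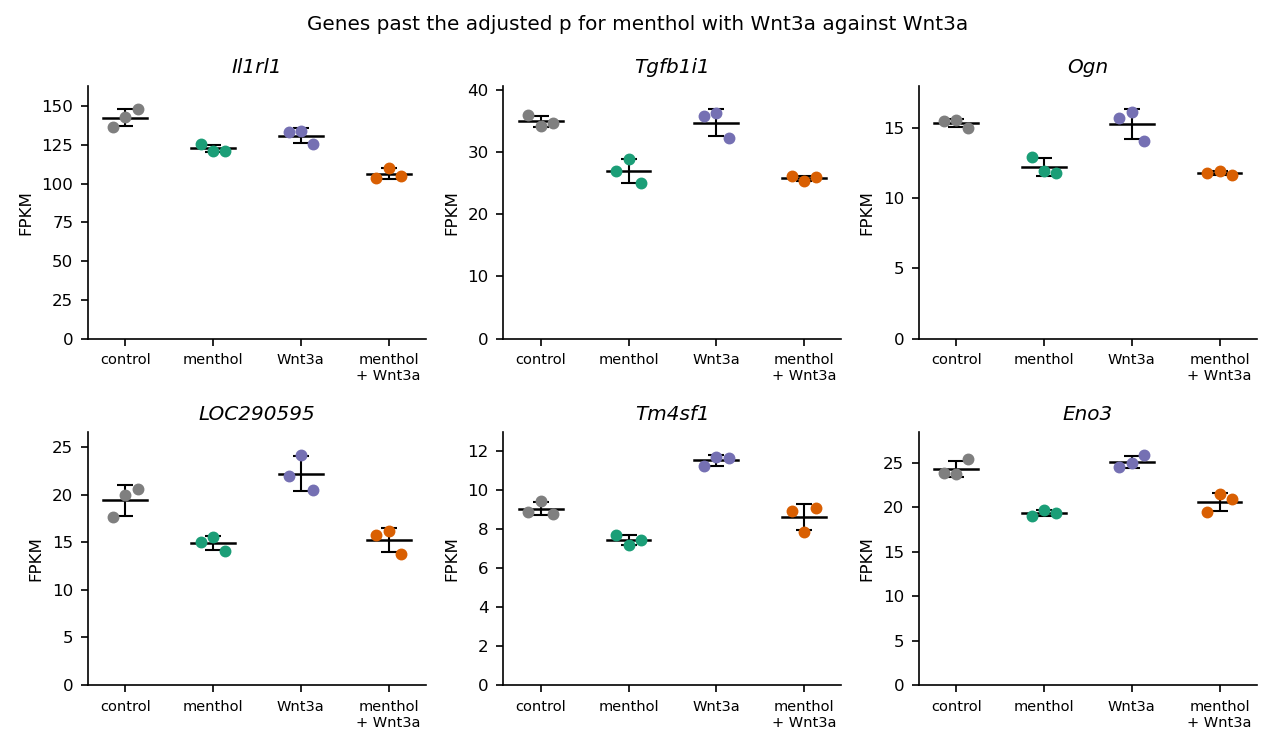
Expression in FPKM (y axis, from 0) of the 6 genes past the adjusted p, by group (x axis), with 1 point per library and the mean and SD over 3 libraries in black. In each panel the libraries with menthol and Wnt3a lie below those with Wnt3a, and the menthol libraries lie below the controls.

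The genes next in line by p included several that were higher with menthol, none of which passed the adjusted p by limma. Hspa4l, a heat shock protein of the HSP110 family, gave 10.4, 9.91 and 11.4 FPKM with Wnt3a and 13.2, 13.0 and 14.0 FPKM with menthol added (log2 0.35 ± 0.057, adjusted p = 0.0501). Errfi1, a feedback inhibitor of the EGF receptor, gave 256, 253 and 263 FPKM and then 281, 285 and 281 FPKM (0.13, adjusted p = 0.0513). Socs3, a feedback inhibitor of cytokine signaling through STAT3, gave 218, 219 and 229.8 FPKM and then 244, 245 and 252 FPKM (0.15, adjusted p = 0.0658). All 3 were apart between the groups and had the same sign with menthol alone. Iffo2 (0.24), Oga (0.22), the enzyme that removes O-GlcNAc from proteins, Ubap2 (0.19), Irx3 (0.23) and Brd2 (0.16), a bromodomain reader of acetylated histones, had adjusted p values between 0.0513 and 0.0722. On the lower side stood Flot1 (-0.19, adjusted p = 0.0501), a lipid raft scaffold, Tmem19 (-0.26), Kitlg (-0.16), the ligand of the KIT receptor, and Rad51c (-0.32, adjusted p = 0.0722), which acts in homologous recombination. By limma voom on the recovered reads, all genes named in this paragraph but Rad51c passed, with adjusted p values from 0.00133 to 0.0107. Rad51c had 0.0689.

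The largest differences among genes that were apart between the groups belonged mostly to genes of low level. Hoxa7 gave 0.628, 0.774 and 1.21 FPKM with Wnt3a and 1.21, 1.41 and 2.20 FPKM with menthol added (log2 0.82 ± 0.23, adjusted p = 0.153). Gnrh1, the gonadotropin-releasing hormone precursor, gave 3.11, 3.19 and 2.94 FPKM and then 1.96, 0.607 and 2.69 FPKM (-0.99 ± 0.34, adjusted p = 0.228). Its 3 libraries with menthol held 38, 12 and 52 reads, so the spread among them was wide. Tmem238 (0.67), S100a14 (0.61), Hist1h2af (-1.30), Nppa (-0.93), Klf1 (-0.72) and Kantr (-0.72) did not pass either. Hist1h2af belongs to a family of near-identical histone genes whose reads may be split between copies.

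Metallothioneins are small cysteine-rich proteins that bind zinc and copper, and their genes are turned on by the zinc-sensing factor MTF1 at metal response elements. Mt1 (NCBI Gene 24567) gave 117, 83.1 and 106 FPKM with Wnt3a and 287, 176 and 182 FPKM when menthol was added. Every library with menthol was above every library without it. The log2 fold change was 1.05 ± 0.21, a level 2.08 times that with Wnt3a alone, and it did not pass in the fit across all genes (adjusted p = 0.076), whereas limma voom on the recovered reads gave an adjusted p of 0.00141. Menthol alone took Mt1 from 158, 93.1 and 117 FPKM to 458, 313 and 324 FPKM (1.59, adjusted p = 0.0135). The difference between the 2 changes, -0.53 on the log2 scale, had an unadjusted p of 0.099 by limma.

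Mt2A (NCBI Gene 689415) gave 673, 556 and 646 FPKM with Wnt3a and 1189, 745 and 828 FPKM with menthol added (log2 0.53 ± 0.17, adjusted p = 0.195, and 0.0271 by voom). The groups were apart here too. Menthol alone gave 0.93 (adjusted p = 0.0692). In both genes replicate 1 was the highest library of each of the 4 groups. With a replicate block in the limma fit, the adjusted p was 0.000151 for Mt1 and 0.0112 for Mt2A. With the block and voom together, the interaction had an adjusted p of 0.00103 for Mt1 and 0.00191 for Mt2A. Mt1m, a further metallothionein of lower level, gave 3.91, 2.57 and 2.08 FPKM and then 7.15, 3.06 and 1.80 FPKM, with overlapping groups (0.30), whereas menthol alone gave 1.60 (adjusted p = 0.204). Among 16 tested members of the list of metallothioneins and zinc transporters, 3 were higher at an unadjusted p under 0.05 (18.8%, against 7.13% of all genes) and none was lower. Beside Mt1 and Mt2A this was Slc30a7, a zinc transporter of the Golgi (0.11), and the median over the list was 0.01. Metallothionein genes are close relatives, and some of their reads may be assigned to another member.

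The 250 bases upstream of the start of each metallothionein gene are shown because Mt1 was the gene that passed 2-fold and the adjusted p by voom. They come from the RefSeq promoter table (rat build GRCr8), at chr19:10832976-10833225 for Mt1 and chr19:10838709-10838958 for Mt2A, both on the minus strand, 5′ to 3′. Capitals mark matches to the core of the metal response element, TGCACNC or TGCGCNC, on either strand.
Mt1: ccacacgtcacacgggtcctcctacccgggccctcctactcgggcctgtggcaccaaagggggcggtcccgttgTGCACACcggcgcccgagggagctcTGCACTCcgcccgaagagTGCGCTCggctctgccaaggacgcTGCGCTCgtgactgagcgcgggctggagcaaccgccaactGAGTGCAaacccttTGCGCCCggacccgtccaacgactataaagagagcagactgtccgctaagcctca
Mt2A: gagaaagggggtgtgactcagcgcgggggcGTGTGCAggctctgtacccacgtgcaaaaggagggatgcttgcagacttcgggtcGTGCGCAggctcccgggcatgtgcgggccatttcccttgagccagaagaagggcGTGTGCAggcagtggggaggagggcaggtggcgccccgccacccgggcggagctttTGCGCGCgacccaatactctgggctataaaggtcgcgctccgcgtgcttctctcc
The Mt1 stretch held 6 matches and the Mt2A stretch held 4. Of 8354 tested genes with a promoter entry, 2639 (31.6%) had at least 1 match and 196 (2.35%) had 3 or more. Within the zinc list, 6 of 12 promoters had a match, and Mt1 and Mt2A were the members with 3 or more.

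Fbxo32 (NCBI Gene 171043), the muscle ubiquitin ligase atrogin-1 and a FoxO target, differed in sign between the 2 settings. With Wnt3a alone it stood at 0.395, 0.386 and 0.324 FPKM, and with menthol added at 0.525, 0.905 and 0.824 FPKM. Controls gave 0.807, 0.873 and 0.934 FPKM and menthol alone 0.422, 0.373 and 0.370 FPKM. Thus the libraries with menthol were all higher in the presence of Wnt3a and all lower in its absence. The log2 fold changes were 0.84 ± 0.19 (adjusted p = 0.0879) and -0.99 (adjusted p = 0.0831), and the interaction of 1.83 had an adjusted p of 0.0956. Without replicate 1 of menthol with Wnt3a the interaction was 2.04 (adjusted p = 0.0114). These values rest on 13 to 37 reads per library in the compared groups. Gadd45b, a stress-induced regulator of growth, showed a smaller difference of the same kind, 0.18 against -0.19. No gene passed the adjusted p for the interaction by limma (0%) or by voom, while 800 (6.99%) had an unadjusted p under 0.05.

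**Figure D2:**
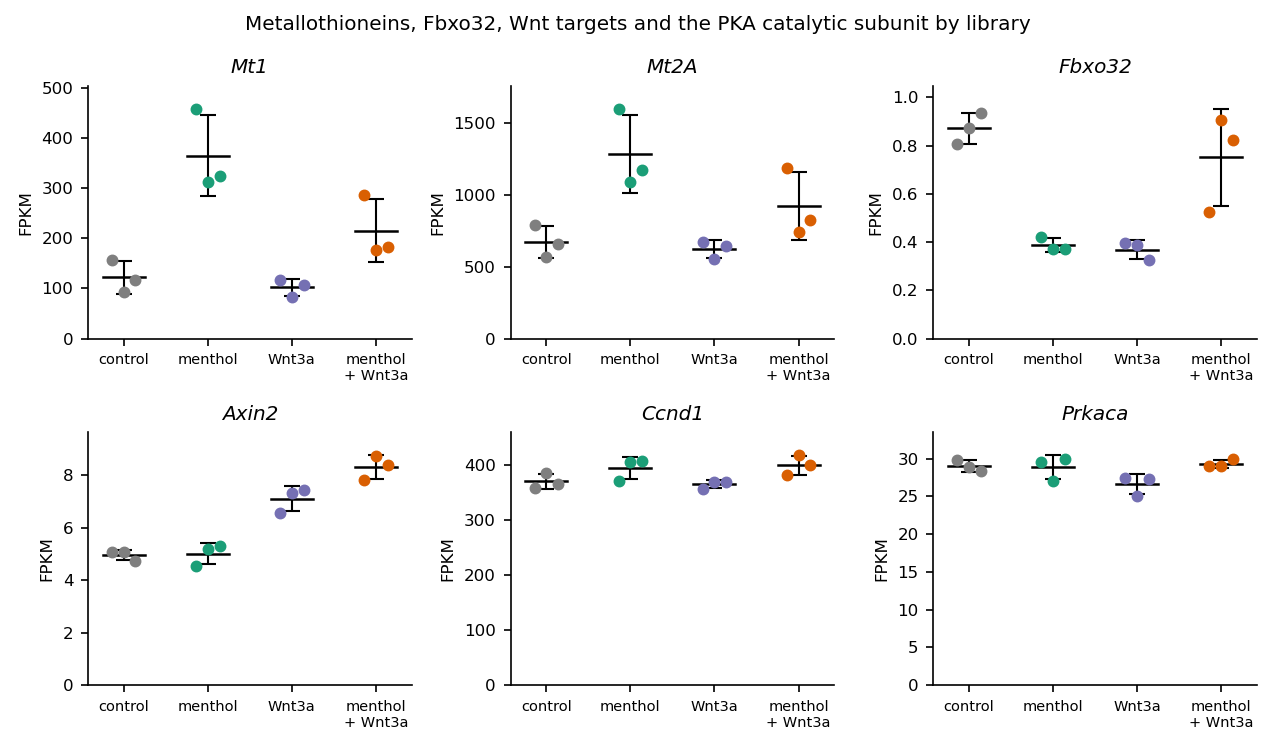
Expression in FPKM (y axis, from 0) of 6 genes by group (x axis), with 1 point per library and the mean and SD over 3 libraries. Mt1 and Mt2A are higher with menthol with or without Wnt3a, Fbxo32 is higher with menthol beside Wnt3a and lower without it, and Axin2 is highest with menthol and Wnt3a.

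In the integrated stress response, amino acid shortage or other stress leads to translation of the factor ATF4, which turns on genes of amino acid synthesis and uptake. Of 22 tested genes of this response, 11 were higher with menthol on top of Wnt3a at an unadjusted p under 0.05 (50.0%, against 7.13% of all genes), and none was lower (background 7.37%). Their median log2 fold change was 0.10, and that of all tested genes was -0.0017. No member passed the adjusted p by limma. By voom 5 members passed, namely Psat1, Mthfd2, Aldh18a1, Slc7a5 and Slc6a9. Without Wnt3a replicate 3 the count was 7.

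Among the amino acid transporters, Slc6a9, which carries glycine, gave 9.24, 9.76 and 9.24 FPKM with Wnt3a and 11.2, 12.8 and 12.7 FPKM with menthol added (log2 0.37 ± 0.072, adjusted p = 0.0722). Slc7a5, which carries large neutral amino acids such as leucine, gave 25.8, 26.8 and 26.3 FPKM and then 29.3, 32.3 and 30.8 FPKM (0.22, adjusted p = 0.0722). Its partner chain Slc3a2 was at 0.10. In both Slc6a9 and Slc7a5 the groups were apart. Among enzymes of serine and folate metabolism, Psat1 gave 51.1, 53 and 54.0 FPKM and then 59.9, 65.0 and 66.2 FPKM (0.27, adjusted p = 0.0836), and Mthfd2 gave 20.1, 18.7 and 20.7 FPKM and then 23.6, 23.2 and 21.9 FPKM (0.21, adjusted p = 0.0924). Phgdh (0.27), the first enzyme of serine synthesis, Shmt2 (0.10), Aldh18a1 (0.22) of proline synthesis and Asns (0.12), asparagine synthetase, had unadjusted p values under 0.05 as well. The factors and stress-linked members were mixed. Atf4 itself gave 205, 219 and 192 FPKM and then 202, 213 and 214 FPKM (0.03), and Ddit3 (0.01), which encodes the pro-apoptotic factor CHOP, Trib3 (0.04) and Chac1 (0.02) were near 0. Sesn2 (0.15) and Atf5 (0.22) were higher at an unadjusted p under 0.05.

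Menthol without Wnt3a gave 10 of these 22 genes higher (45.5%, against 4.51% of all genes) and none lower (against 4.82%), with a median of 0.12. In both comparisons, which share no library, 7 genes were higher. Of the 22 genes, 0 had an unadjusted interaction p under 0.05 and none passed the adjusted interaction p by limma. A match to TGATGNAA, a core of the amino acid response element bound by ATF4, on either strand was found within 250 bases upstream of 4 of 20 members with a promoter entry (20%) and of 145 of 8354 genes (1.74%). These 4 were Trib3, Chac1, Pycr1 and Nupr1, none of which had an unadjusted p under 0.05 in this comparison.

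Aminoacyl-tRNA synthetases, which load amino acids onto tRNAs, were on both sides. Of 44 tested genes of the KEGG set, 11 were higher (25.0%, against 7.13% of all genes) and 4 lower (9.09%, against 7.37%), and the median log2 fold change was -0.02. All 11 that were higher encode synthetases that act in the cytosol: Iars1, Tars1, Eprs, Aars1, Cars, Nars1, Yars1, Vars1, Mars1, Qars1 and Sars1. Iars1, which loads isoleucine, gave 34.8, 32.6 and 34.6 FPKM and then 39.1, 38.8 and 40.7 FPKM (log2 0.22 ± 0.039, adjusted p = 0.0658). Among the 4 that were lower were Gatb (-0.16) and Mtfmt (-0.11), which act in mitochondria. With menthol alone 11 members were higher (25.0%, against 4.51% of all genes) and none lower (against 4.82%), and 8 were higher in both. The count of 11 was 7 without Wnt3a replicate 3 and 7 without replicate 3 of menthol with Wnt3a, and the count of 4 was 1 without Wnt3a replicate 1, 0 without replicate 2 of menthol with Wnt3a, and 2 without Wnt3a replicate 2 or replicate 1 of menthol with Wnt3a.

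Genes that respond to YAP, SRF and TGF-β, many of them parts of the contractile actin cytoskeleton, lay on the lower side. Of 23 tested members, 12 were lower with menthol on top of Wnt3a (52.2%, against 7.37% of all genes) and 4 were higher (17.4%), with a median log2 fold change of -0.09. No member passed the adjusted p by limma, and by voom Tagln, Tpm1 and Actb passed as lower and Lats2 as higher. Without Wnt3a replicate 1 the lower count was 7.

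Actb, cytoplasmic β-actin, gave 2969.9, 2808 and 2859 FPKM with Wnt3a and 2669, 2524 and 2511 FPKM with menthol added (log2 -0.17 ± 0.034, adjusted p = 0.0809). Tagln, the actin-binding protein transgelin, gave 4.92, 3.38 and 4.42 FPKM and then 2.50, 2.20 and 2.70 FPKM (-0.74 ± 0.16, adjusted p = 0.0836). Neither overlapped between the groups. Cnn2, calponin 2, gave 204, 206 and 196 FPKM and then 189, 188 and 184 FPKM (-0.11). Other contractile and adhesion genes with an unadjusted p under 0.05 were Myl9 (-0.69), Acta2 (-0.76), Tpm1 (-0.12), Tpm2 (-0.11), Actg1 (-0.13), Vcl (-0.09) and Flna (-0.10). Actb and Actg1 share long stretches of sequence, so their reads are not fully separable. Tgfb1i1, which passed the adjusted p, was not on this list.

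The 4 members on the higher side were Lats2, a kinase that restrains YAP, Ccn2 (0.19), a matricellular growth factor, Ajuba (0.11) and Smad7 (0.18), an inhibitor of TGF-β signaling. Lats2 gave 44.5, 41.3 and 42.1 FPKM and then 48.0, 48.1 and 46.8 FPKM (0.16, adjusted p = 0.081). Without replicate 2 of menthol with Wnt3a the higher count was 1. Menthol alone gave 10 members lower (43.5%, against 4.82% of all genes) and 1 higher (4.35%, against 4.51%), with a median of -0.10. In both comparisons 7 members were lower.

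Some fibroblast markers were lower beside this list. Of 8 tested, 3 were lower (37.5%, against 7.37% of all genes) and none higher, and none passed the adjusted p by limma. The 3 were Vim (-0.15, adjusted p = 0.0836, and 0.00641 by voom), Col1a2 (-0.07) and Thy1 (-0.06). The count was 1 without replicate 1 or without replicate 2 of menthol with Wnt3a. The summed level of the 11 markers, most of it from Vim, was 1172 to 1234 FPKM with Wnt3a and 1101 to 1111 FPKM with menthol added, while the summed level of the neuronal markers was 121 to 129 and 121 to 134 FPKM. The part of cell makeup in the result was not tested, and in bulk RNA fewer cells of a type and less RNA per cell cannot be told apart. Of 17 collagen and matrix genes, 3 were lower (17.6%, against 7.37% of all genes), among them Sparc (-0.13), and 2 were higher (11.8%, against 7.13%). Menthol alone gave 8 lower (47.1%, against 4.82% of all genes) and 1 higher (5.88%, against 4.51%). The lower count was 1 without Wnt3a replicate 3 or without replicate 1 or 2 of menthol with Wnt3a.

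**Figure D3:**
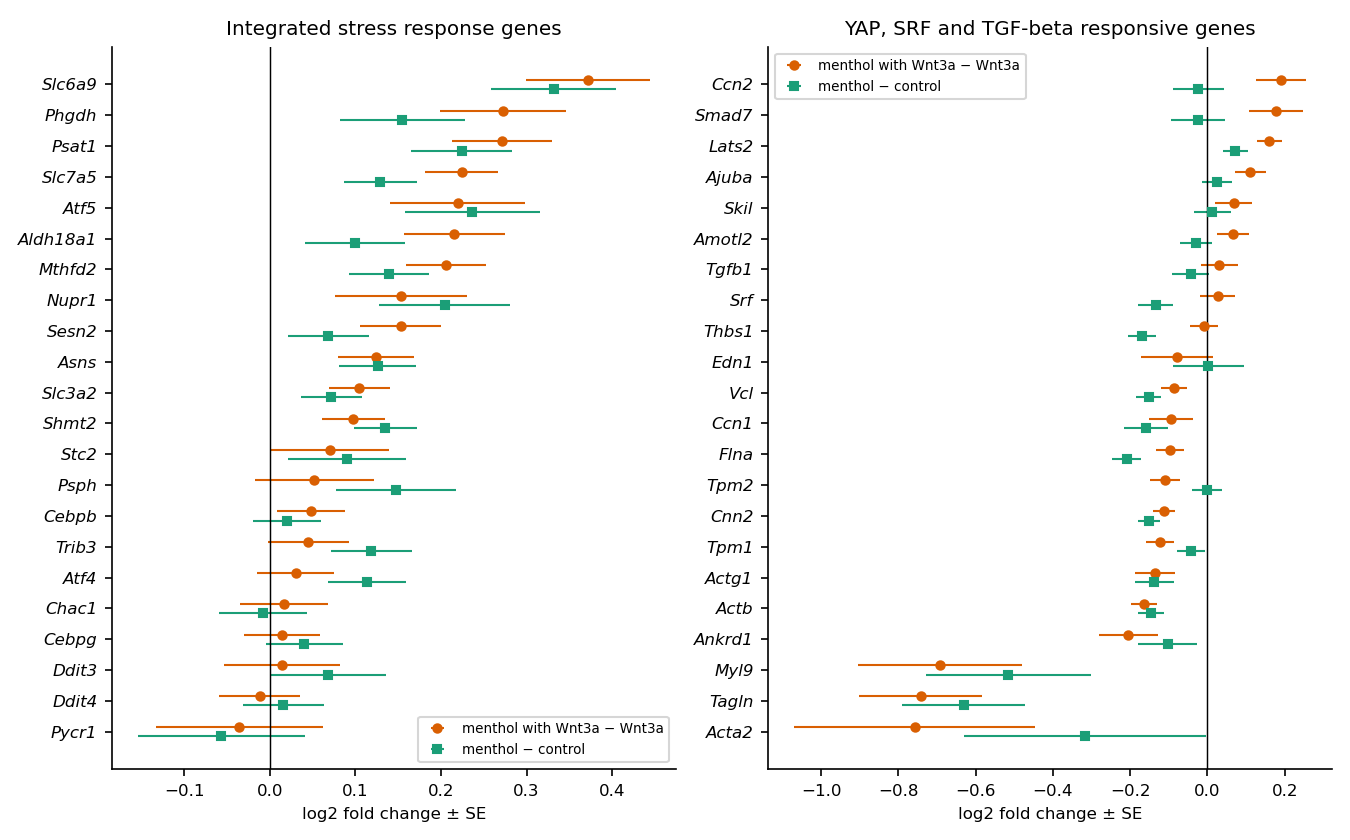
log2 fold change with its SE (x axis) for the 22 tested genes of the integrated stress response list (left) and 22 of the 23 of the YAP, SRF and TGF-β list (right), for menthol with Wnt3a against Wnt3a (circles) and menthol against control (squares). Most stress response genes lie to the right of 0 in both comparisons and most contractile genes to the left.

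Of 22 listed Wnt targets and feedback genes 10 were tested, and 3 of these were higher at an unadjusted p under 0.05 when menthol was added (30.0%, against 7.13% of all genes) and none lower, with a median log2 fold change of 0.12. None passed the adjusted p by limma, and 1 passed by voom. Axin2 gave 6.56, 7.31 and 7.45 FPKM with Wnt3a and 7.83, 8.71 and 8.37 FPKM with menthol added (0.22 ± 0.072, adjusted p = 0.2). The groups were apart, and both were above the controls, which gave 5.07, 5.07 and 4.72 FPKM. Menthol alone left Axin2 at 5.01 ± 0.402 FPKM against 4.95 ± 0.201 FPKM (0.01, SD, n = 3). Ccnd1, cyclin D1, gave 356, 368 and 369.5 FPKM and then 382, 417 and 399 FPKM (0.13, adjusted p = 0.197, and 0.0479 by voom). Myc gave 29.5, 29.9 and 28.6 FPKM and then 32.4, 31.1 and 32.1 FPKM (0.12). With menthol alone the median of the list was -0.01. Targets often used as readouts, such as Lef1 (mean 0.0158 FPKM), Nkd1 (0.0085 FPKM), Notum (0.0894 FPKM) and Rnf43 (0.292 FPKM), were under the limit.

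The receptors and the machinery upstream of β-catenin gave 6 of 26 tested genes higher (23.1%, against 7.13% of all genes). None was lower (against 7.37%), and the median was 0.06. Fzd3, a Frizzled receptor, gave 2.89, 2.67 and 3.13 FPKM and then 4.35, 3.93 and 3.28 FPKM (log2 0.39 ± 0.10, adjusted p = 0.118). Dvl3, a Dishevelled protein, gave 18.9, 19.5 and 21.2 FPKM and then 22.3, 22.9 and 23.7 FPKM (0.21, adjusted p = 0.139, and 0.0336 by voom). Both were apart between the groups. Axin1, the scaffold of the destruction complex, gave 25.3, 24.7 and 25.3 FPKM and then 27.2, 28.4 and 27.8 FPKM (0.15, adjusted p = 0.0879). Gsk3a gave 39.9, 40.8 and 41.2 FPKM and then 45.0, 44.3 and 44.9 FPKM (0.14). Lrp6 (0.12) and Fzd6 (0.17) completed the 6. With menthol alone none of the 26 was higher (against 4.51% of all genes), 1 was lower (3.85%, against 4.82%) and the median was -0.02. Of the 26, 4 had an unadjusted interaction p under 0.05 by limma, as had 6.99% of all tested genes. The mRNA of β-catenin itself, Ctnnb1, gave 177, 177 and 175 FPKM and then 175, 176 and 176 FPKM (-0.01 ± 0.023). Gsk3b gave 23.2, 22.6 and 23.3 FPKM and then 22.3, 23.4 and 23.0 FPKM (-0.01). The groups overlapped for both genes. In the KEGG Wnt pathway 14 of 99 genes were higher (14.1%, against 7.13% of all genes) and 2 lower (2.02%, against 7.37%). The lower count was 5 without Wnt3a replicate 3 and 4 without replicate 1 of menthol with Wnt3a.

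The cAMP machinery did not lean to either side. Of 25 tested members of 42 listed, 3 were higher (12%, against 7.13% of all genes) and 1 lower (4%, against 7.37%). The median log2 fold change was -0.0002. Prkaca gave 27.5, 25.1 and 27.2 FPKM with Wnt3a and 29.0, 29.0 and 29.9 FPKM with menthol added (0.14 ± 0.046, adjusted p = 0.204). The groups were apart, and the level with menthol lay at that of the controls, 29.0 ± 0.766 FPKM (SD, n = 3). Pde4a (0.17), a phosphodiesterase that breaks down cAMP, and Crtc3 (0.16), a coactivator of CREB, were the others on the higher side, and Prkar1b (-0.14), a regulatory subunit of protein kinase A, was lower. Without Wnt3a replicate 2 none was higher, and without replicate 3 of menthol with Wnt3a 1 was. Of 10 adenylate cyclase genes 2 were tested: Adcy6 gave 7.15, 6.63 and 8.16 FPKM and then 6.90, 7.92 and 7.54 FPKM (0.03), and Adcy9 gave 0.926 ± 0.0521 and then 1.04 ± 0.134 FPKM (0.15). These groups overlapped. None of 20 tested immediate early and CREB target genes had an unadjusted p under 0.05, by limma, and none passed by voom; Fos was at -0.24. In the KEGG cAMP pathway 7 of 92 genes were higher (7.61%) and 8 lower (8.70%), shares near those of all genes. The higher count was 2 without Wnt3a replicate 2 and 13 without Wnt3a replicate 3, and the lower count was 3 without Wnt3a replicate 1 and 5 without Wnt3a replicate 2 or without replicate 2 or 3 of menthol with Wnt3a.

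Of 27 tested genes of calcium entry, stores and sensors, 5 were higher (18.5%, against 7.13% of all genes). None was lower (against 7.37%), and the median was 0.02. Itpr1, the receptor that releases calcium from the endoplasmic reticulum, gave 2.63, 2.48 and 2.71 FPKM and then 2.87, 3.29 and 3.30 FPKM (log2 0.26 ± 0.076, adjusted p = 0.162, and 0.0361 by voom). Orai2 (0.28), a subunit of store-operated channels, Nfatc3 (0.10), Slc8b1 (0.09) and Atp2a2 (0.05), the calcium pump of the endoplasmic reticulum, were the others. The count was 1 without Wnt3a replicate 1, 3 without Wnt3a replicate 2 and 2 without either replicate 2 or replicate 3 of menthol with Wnt3a. In the KEGG calcium pathway 9 of 84 genes were higher (10.7%, against 7.13% of all genes) and 7 lower (8.33%, against 7.37%). The lower count was 3 without Wnt3a replicate 2 and 4 without replicate 2 of menthol with Wnt3a.

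Among the other lists, genes of the NRF2 antioxidant response gave 6 of 21 higher (28.6%, against 7.13% of all genes) and 1 lower (4.76%, against 7.37%). Txnrd1, thioredoxin reductase, gave 47.9, 46.7 and 48.2 FPKM and then 53.4, 53.7 and 52.9 FPKM (log2 0.16 ± 0.036, adjusted p = 0.0836, and 0.0211 by voom). Slc7a11 (0.39, adjusted p = 0.0426 by voom), the cystine importer, Nqo1 (0.14) and Gclc (0.11), which starts glutathione synthesis, were higher, and Me1 (-0.14) was lower. The higher count was 3 without Wnt3a replicate 1, without Wnt3a replicate 3 or without replicate 3 of menthol with Wnt3a. Of 26 hypoxia and glycolysis genes, 5 were higher (19.2%) and 2 lower (7.69%), against 7.13% and 7.37% of all genes. The higher ones included the hexokinases Hk1 (0.14, 92.7 ± 1.90 to 102 ± 1.19 FPKM) and Hk2 (0.17, 63.1 ± 4.17 to 71.2 ± 2.43 FPKM), each with an adjusted p of 0.0262 by voom. The lower ones were P4ha2 (-0.11) and Ndrg1 (-0.08). The higher count was 3 without Wnt3a replicate 2 or without replicate 1 or 2 of menthol with Wnt3a. Notch genes gave 3 of 8 higher (37.5%, against 7.13% of all genes) and none lower, namely Maml1, Notch2 and Rbpj, and 1 without Wnt3a replicate 2. The groups overlapped for Notch2. The counts of the remaining lists are small, and are to be read against 7.13% of all genes higher and 7.37% lower. Of 16 heat shock chaperones 4 were lower (25.0%) and 1 higher (6.25%), and of 18 chaperones of the endoplasmic reticulum 3 were lower (16.7%) and none higher. Of 24 sterol synthesis genes 2 were higher and 3 lower, of 25 ribosome biogenesis genes 4 and 2, of 33 cell cycle genes 1 and 1, and of 16 cytokine and NF-κB genes 0 and 2, Cxcl10 (-0.30) and Nfkbia (-0.12). Single libraries moved these small counts: without Wnt3a replicate 3 the lower counts were 6 for sterol synthesis and 4 for cytokine genes, without replicate 1 of menthol with Wnt3a they were 5 for cell cycle and 5 for cytokine genes, and without replicate 2 of menthol with Wnt3a they were 2 for heat shock and 1 for endoplasmic reticulum chaperones. FoxO genes gave 2 of 14 higher, ERK feedback genes 2 of 13, Hedgehog genes 1 of 5 and aryl hydrocarbon receptor genes 1 of 6, with none lower. None of 15 p53 targets or of 9 BMP response genes had an unadjusted p under 0.05, and none of these passed by limma or voom.

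**Figure D4:**
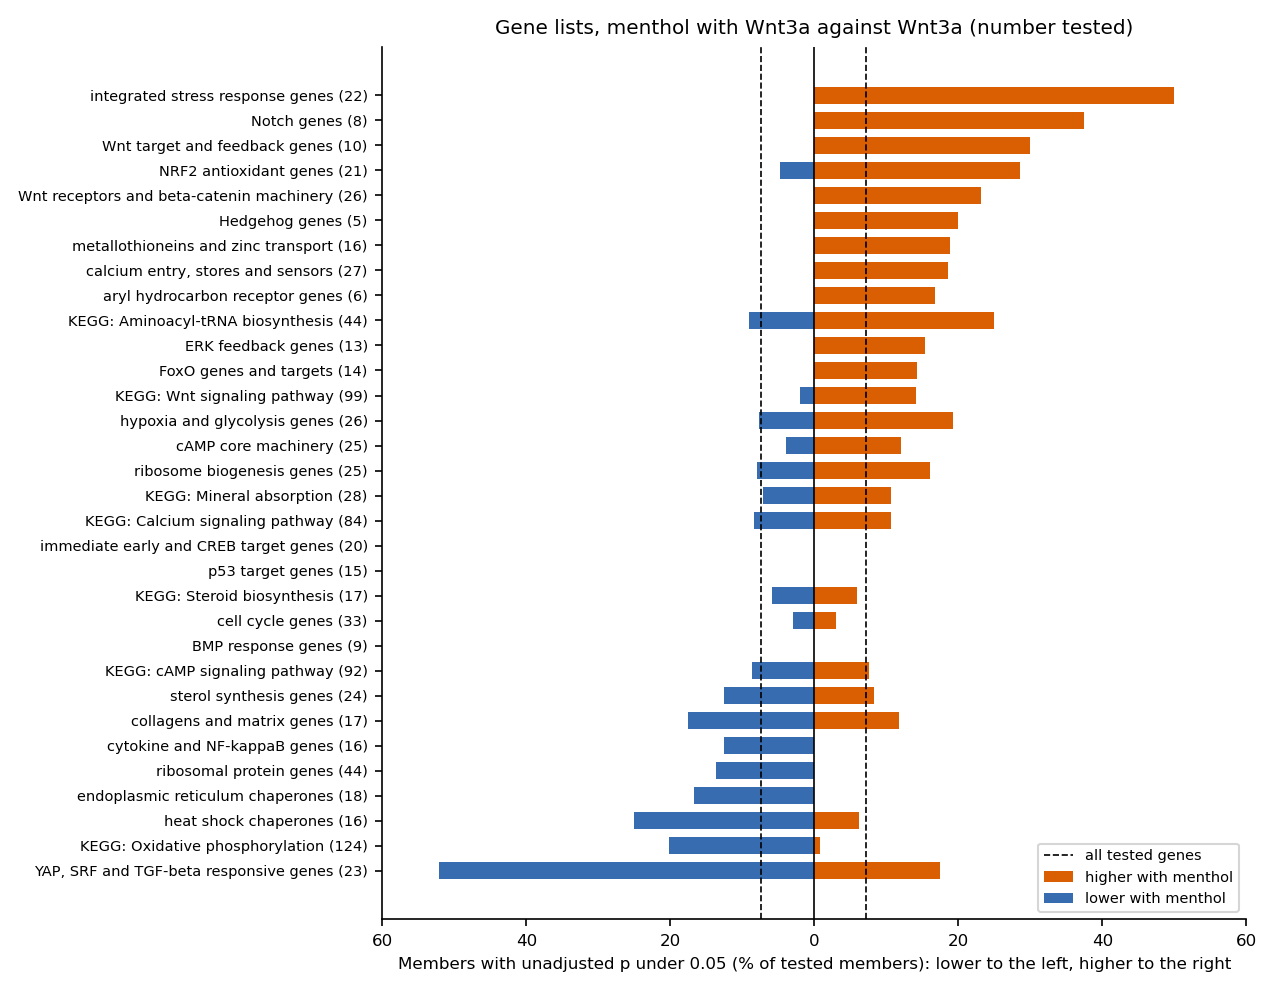
Share of the tested members of each gene list (y axis, number tested in brackets) with an unadjusted p under 0.05, in percent (x axis), drawn to the right for genes higher with menthol and to the left for genes lower. Dashed lines mark the shares over all tested genes, 7.13% higher and 7.37% lower. The integrated stress response list reaches 50.0% to the right and the YAP, SRF and TGF-β list 52.2% to the left.

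Gene length went along with the direction of the difference. With the tested genes put into 5 bins of length, as implied by the FPKM steps, the median log2 fold change was -0.05 in the shortest bin and 0.03 in the longest. In the shortest bin 2.93% of genes were higher and 14.3% lower, and in the longest 10.3% and 2.58%. Pearson's r between the log2 fold change and log2 length was 0.200 over 11451 genes, which share libraries and are not independent replicates. With menthol alone it was -0.129. The bins stood furthest apart in 2 Wnt3a libraries. Relative to their mean over all libraries, short genes exceeded long ones by 0.08 and 0.14 in Wnt3a replicates 1 and 2 and by -0.02 in replicate 3, while those with menthol and Wnt3a stood at 0.03, -0.03 and -0.04.

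Lists of short genes were touched by this. Oxidative phosphorylation genes encode the respiratory chain and ATP synthase, and the 124 tested had a median length of 927 bases. Of these, 25 were lower (20.2%, against 7.37% of all genes) and 1 higher (0.806%, against 7.13%). With the length trend of each library removed, 10 were lower and 3 higher, and the median moved from -0.05 to -0.004. Of 44 ribosomal protein genes 6 were lower (13.6%, against 7.37% of all genes), and with the trend removed 0 were lower and 1 higher. With menthol alone the medians had the other sign, 0.03 for oxidative phosphorylation and 0.04 for ribosomal proteins. There, 15 of the 124 were higher (12.1%, against 4.51% of all genes) and 1 of the 44. An unadjusted interaction p under 0.05 by limma was found for 28 of the 124 and 10 of the 44 (6.99% of all genes). The part of gene length in this was not tested. The lower count of oxidative phosphorylation genes was 14 without Wnt3a replicate 2, 16 without replicate 3 of menthol with Wnt3a and 38 without Wnt3a replicate 3, and that of ribosomal proteins was 22 without Wnt3a replicate 3, 2 without Wnt3a replicate 2, 4 without replicate 2 of menthol with Wnt3a and 1 without Wnt3a replicate 1 or replicate 3 of menthol with Wnt3a. Other lists had counts nearer to those above. With the trend removed, the integrated stress response list had 12 higher and none lower (median 0.12), the YAP, SRF and TGF-β list 12 lower and 4 higher (-0.09), and the Wnt receptors and machinery 6 higher and none lower (0.04). The Wnt targets had 3 higher and 1 lower, the aminoacyl-tRNA set 11 and 2, calcium genes 5 and 0, the cAMP machinery 3 and 1, NRF2 genes 7 and 1, collagen and matrix genes 0 and 4, and Notch genes 2 and 0. With the trend removed 14 genes passed the adjusted p, 7 higher and 7 lower. Among them were 5 of the 6 genes above, all but Eno3, together with Hspa4l, Errfi1, Iffo2, Socs3, Ubap2, Pelo and Iars1 as higher and Flot1 as lower.

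**Figure D5:**
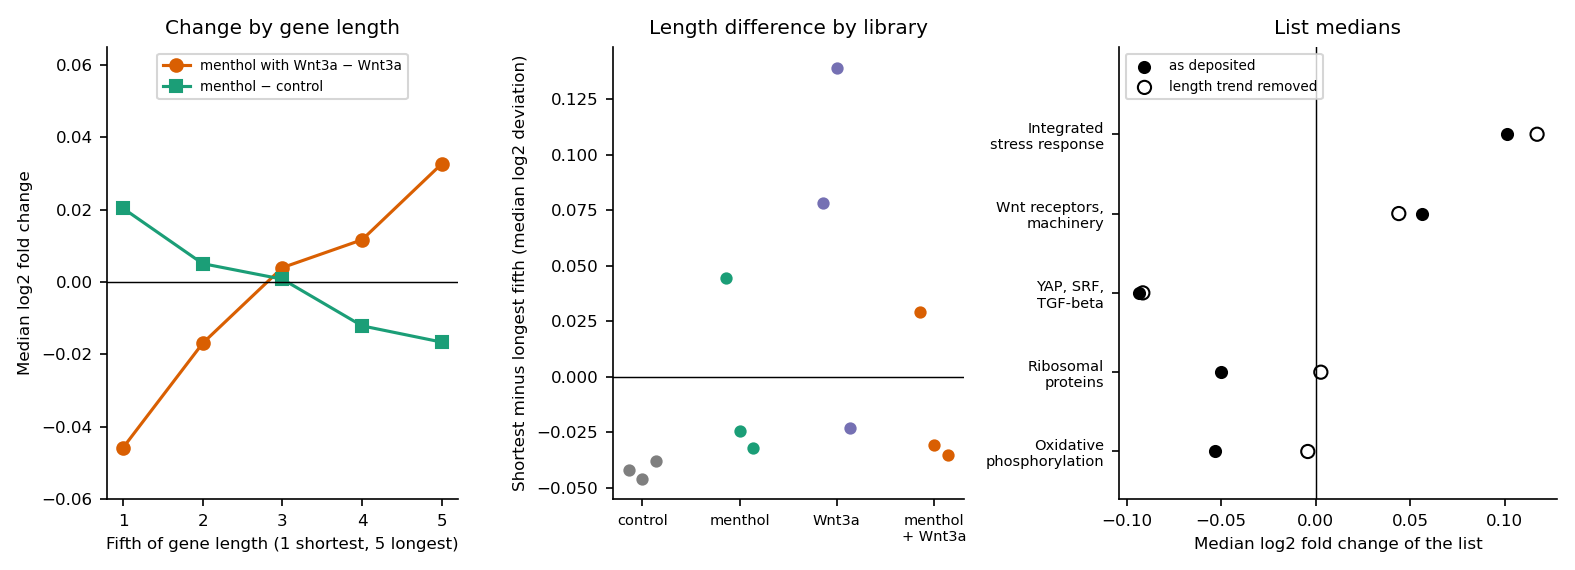
Left, median log2 fold change (y axis) over 5 bins of gene length (x axis, 1 shortest) for both menthol comparisons. Middle, the difference between the shortest and longest bin in each library (log2), with 2 of the 3 Wnt3a libraries highest. Right, median log2 fold change of 5 lists with the values as deposited (filled) and with the length trend removed (open); ribosomal proteins and oxidative phosphorylation move to near 0.

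Menthol against control used 6 other libraries and gave 12 genes past the adjusted p (0.105%), 2 higher and 10 lower. At an unadjusted p under 0.05 it had 517 genes higher (4.51%) and 552 lower (4.82%). Of the 1660 genes with an unadjusted p under 0.05 for menthol on top of Wnt3a, 1128 (67.95%) had the same sign with menthol alone. The share was 78.3% of 530 genes at 0.01 and 90.38% of 104 genes at 0.001, against 56.97% of all tested genes. Pelo, a ribosome rescue factor, was among the exceptions. It gave 41.4, 43.4 and 40.5 FPKM with Wnt3a and 48.4, 47.4 and 49.5 FPKM with menthol added (log2 0.21, adjusted p = 0.0658), and menthol alone gave -0.09.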

How the data were processed

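RNA sequencing of ND7/23 cells gave 12 libraries in 4 groups of 3. Per the authors' methods and the submitters' processing notes, paired reads were trimmed with fastp, aligned with HISAT to the rat build mRatBN7.2 and counted with HTSeq-count, and the authors deposited FPKM per gene. How reads of the mouse part of the hybrid genome were assigned is not given in the sources used here. The study tested read counts. Its own counts were not used here, and the reads given to voom were recovered from the FPKM.

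Values were tested as log2(FPKM + 0.1) for genes with a mean of at least 0.5 FPKM, with limma 3.58.1 in R 4.3.3 (1 fit over 4 groups, 8 residual degrees of freedom, variance trend, no block) and Benjamini-Hochberg adjustment over 11451 genes. An exact test of 3 against 3 libraries cannot go below p = 0.1. Whole reads were recovered from the FPKM steps (tolerance 1e-06) for 21556 of 21556 genes, although 1804 genes were above 0 in 1 library only and carry no step to compare. Scripts were tested on simulated data.

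The gene lists and the comparison were chosen with earlier results of these data known. Genes named were all those past the adjusted p, those of smallest p and largest change among genes apart between groups, up to 4 members per list, and a few fixed ones. Any further gene was picked with its values in view. Loci without a symbol were passed over, 7 among the largest higher changes and 3 among the lower. A few genes are not reported here.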

Additional observations from a re-analysis of the deposited data

Results flagged for a closer look

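Fbxo32 had a log2 fold change of 0.84 for menthol on top of Wnt3a and -0.99 for menthol against control, with an unadjusted interaction p of 8.353e-06 and an adjusted p of 0.0956 by limma. Gadd45b differed likewise, 0.18 against -0.19 (unadjusted p = 0.00339, adjusted p = 0.715). In both genes every library with menthol was above its comparison group with Wnt3a and below it without. The mean log2 difference over the Wnt receptors and β-catenin machinery was 0.0843 on top of Wnt3a and -0.0367 for menthol alone, and over the FoxO genes 0.0766 and -0.0735. For these lists the mean of every library with menthol lay on opposite sides in the 2 settings, and the difference between the settings was not tested. Gene length went along with the direction in opposite ways in the 2 settings (Pearson's r 0.200 and -0.129). In the Wnt list, Wnt3a replicates 1 and 2 stood at -0.0539 and -0.0895 and replicate 3 at 0.0053. The part of gene length in these list means was not tested. Fbxo32 is itself a FoxO list member and the median over the 14 FoxO genes was 0.0168 and 0.0052, of the same sign in both settings.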

How the results depend on the processing

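The count of 6 genes past the adjusted p was 0 with no FPKM minimum, with the compared groups alone or with no variance trend. It was 144 by voom, 14 with the length trend removed, and 0 to 38 leaving out a library. The 6 genes were among those of voom. It was 9 with a pseudocount of 1, a minimum of 1 FPKM or centring, each time 2 higher and 7 lower. Genes also past 2-fold numbered 0, against 1 by voom (Mt1), and 0 leaving out any library. Interaction calls numbered 0, against 1 with no minimum, 2 with the length trend removed (Fbxo32, Pelo) and 0 to 1 leaving out a library. Menthol against control gave 12, against 2 with no minimum, 60 by voom, 3 with the compared groups alone, 0 with no trend and 0 to 10 leaving out a library. Leaving out a library, Gsk3b ran from -0.0246 to 0.0103, higher without replicate 1 of menthol with Wnt3a, and Adcy6 from -0.0375 to 0.11, lower without replicate 2 of Wnt3a or of menthol with Wnt3a (-0.0146). The cause was not tested.

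Same-numbered libraries of the compared groups correlated at 0.0717, 0.0137 and 0.0665, and other-numbered ones at -0.0826 to 0.0155. Wnt3a replicate 2 did not correlate best with its own number. The labels do not say whether equal numbers mark a pair, so the main fit took no pairing and the block is given beside it. With a replicate block the counts were 24 genes (12 higher, 12 lower) and 1 past 2-fold, and 21 for menthol against control. With the block and voom together, they were 378 and 2, 14 for the interaction and 121 for menthol against control. The block with voom, the removal of the length trend and the lists without each library were chosen after seeing the data.

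Genes under 0.5 FPKM, Trpm8 among them, were not tested except without the FPKM minimum, and the values of Fbxo32 rest on 13 to 37 reads per library of the compared groups.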

Other observations

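Among KEGG pathways with at least 15 tested genes, the largest share of higher genes was in the Hippo pathway (the set for multiple species), with 8 of 21 (38.1%, against 7.13% of all genes). The kinases Lats2 (0.16) and Lats1 (0.17), their partner Mob1a (0.09), the upstream regulator Nf2 (0.11), Ajuba (0.11), Limd1 (0.12), the coactivator Yap1 (0.07) and its DNA-binding partner Tead1 (0.09) made up the 8, and none was past the adjusted p by limma. With menthol alone the set had 1 higher and 1 lower gene (4.51% and 4.82% of all genes), and with the length trend removed 6 were higher. The count was 4 without Wnt3a replicate 1 or replicate 3 of menthol with Wnt3a, and 5 without replicate 2 of either group. Next came Cortisol synthesis and secretion (26.9%), Carbohydrate digestion and absorption (26.3%) and Lysine degradation, where 13 of 50 genes were higher (26.0%) and 3 lower. That set holds histone lysine methyltransferases, of which Setd1b went from 4.41, 4.65 and 4.93 FPKM to 5.43, 5.88 and 5.63 FPKM (0.27), Kmt2d was at 0.20 and Kmt2a and Nsd1 were at 0.21. These are long genes, and with the length trend removed 9 of the set were higher. Without Wnt3a replicate 2 there were 6, and without Wnt3a replicate 1 or replicate 3 of menthol with Wnt3a there were 7.

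On the lower side, Homologous recombination had 9 of 36 genes lower (25.0%, against 7.37% of all genes), among them Rad51c (-0.32), Ssbp1 (-0.26), Babam2 (-0.20), the replication protein Rpa1 (-0.14) and the polymerase δ subunits Pold1 (-0.17) and Pold2 (-0.14). With the length trend removed 7 were lower, and without replicate 2 of menthol with Wnt3a 5 were. Menthol alone gave 2 higher and none lower (4.51% and 4.82% of all genes). Mismatch repair followed with 5 of 22 (22.7%), which was 1 without Wnt3a replicate 3, 2 without replicate 2 of menthol with Wnt3a and 3 without Wnt3a replicate 2 or replicate 3 of menthol with Wnt3a. Rpa1, Ssbp1, Pold1 and Pold2 were counted in both of these sets, and Rfc4 (-0.09) under mismatch repair only. Biosynthesis of unsaturated fatty acids had 4 of 19 lower (21.1%), the desaturases Scd (-0.11) and Fads1 (-0.06), the elongase Elovl5 (-0.08) and Acaa1a (-0.19). Menthol alone also gave 4 lower (21.1%, against 4.82% of all genes) and none higher. Fat digestion and absorption had 3 of 15 lower (20%), with the cholesterol exporter Abca1 at -0.37. Without replicate 2 of menthol with Wnt3a these counts were 2 and 0, and without Wnt3a replicate 1 the count for fat digestion was 1.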
